A study of Mus musculus with 8 samples.

Results

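The Sox, Fox, Gata and T-box genes encode 4 families of DNA-binding transcription factors, and their RNA levels are described here in mouse spermatogonia labelled PRC1dKO or PRC1ctrl. Members were chosen by symbol: all genes named Sox, Gata or Tbx with a number, or Fox with a letter from a to s and a number. The rule matched 82 of the 23343 symbols in the files and left out Foxo1, Gata4, Sox8 and Sox9, which leaves 78 members: 43 Fox, 17 Sox, 13 Tbx and 5 Gata genes. No measured value entered that rule, but members were chosen with earlier results of these data known.

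RNA was sequenced from testis cells of C57BL/6 mice at postnatal day 7, in 4 groups of 2 libraries each. Thy1 dKO and Thy1 control are Thy1+ spermatogonia of genotype PRC1dKO and PRC1ctrl, and cKit dKO and cKit control are cKit+ spermatogonia of the same genotypes. The labels name neither the deleted genes, nor the driver of the deletion, nor the alleles that control animals carry, nor whether the replicates are separate animals. If they are not, the p-values below measure only the spread between these samples.

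Sox proteins bind DNA through an HMG box, Fox proteins through a forkhead domain, Gata proteins through zinc fingers and Tbx proteins through the T-box. Most members are used in the embryo to set up tissues such as heart, gut, limb, blood and nervous system, while a smaller number, among them Foxk, Foxn, Foxo and Foxj genes, are expressed in many cell types. Polycomb repressive complex 1 (PRC1) ubiquitinates histone H2A, above all at CpG-rich promoters, and genes of these families are classical Polycomb targets. Selection for Thy1 enriches undifferentiated spermatogonia, and the receptor Kit appears on them as they start to differentiate.

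Libraries held 6763908 to 10976869 counts. Ring1 and Rnf2, which encode the ligase subunits of PRC1, were not past the test in the dKO libraries of either population: Rnf2 stood at 103 to 146 CPM (counts relative to TMM-scaled library sizes) and Ring1 at 2.59 to 12.0 CPM over the 8 libraries. Counts over a whole gene need not show a deletion of part of it. Summed CPM of 12 core germ cell genes was 514 and 673 in cKit dKO, against 2148 and 1703 in cKit control, and 2226 and 1941 in Thy1 dKO, against 2426 and 2716 in Thy1 control. Markers of somatic testis cells were also present: the sum of 6 Leydig genes ran from 10730 to 17550 CPM in the cKit libraries and from 2468 to 4065 CPM in the Thy1 libraries, and that of 12 peritubular and stromal genes from 3157 to 6285 and from 10430 to 14010 CPM. In such bulk samples, fewer cells of a type and less RNA per cell cannot be told apart.

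Most members were low. On the scale of RPKM, which is relative to transcript length and allows levels to be compared between genes, 21 of the 78 members averaged at least 1 and 12 at least 3 over the 8 libraries. The first of these were Foxn3, a forkhead repressor linked to cell cycle checkpoints, at a mean of 13.7 RPKM, and Foxo3, a target of insulin and growth factor signalling that keeps mouse primordial follicles dormant, at 12.5 RPKM. Foxj3 averaged 9.595 RPKM, Foxm1, an activator of genes of G2 and mitosis, 8.01 RPKM, and Foxj2 7.14 RPKM. Tbx3, a T-box repressor needed for limb and mammary gland, averaged 5.21 RPKM, Sox12 4.79, Foxk1 4.63, Foxk2 4.24 and Foxp1 3.55 RPKM. Foxp1 has 3 transcript entries, so its summed level may hold some reads more than once. Ranges over the libraries were wide for Foxm1 (3.04 to 14.0 RPKM) and Tbx3 (1.75 to 10.5 RPKM) and narrow for Foxn3 (11.8 to 15.3 RPKM), so neighbours in this order cannot all be ranked. Among the Sox genes Sox12 was followed by Sox18 at 3.04 RPKM and Sox4 at 1.95 RPKM, and the first Gata member, Gata2, averaged 1.06 RPKM.

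**Figure D1:**
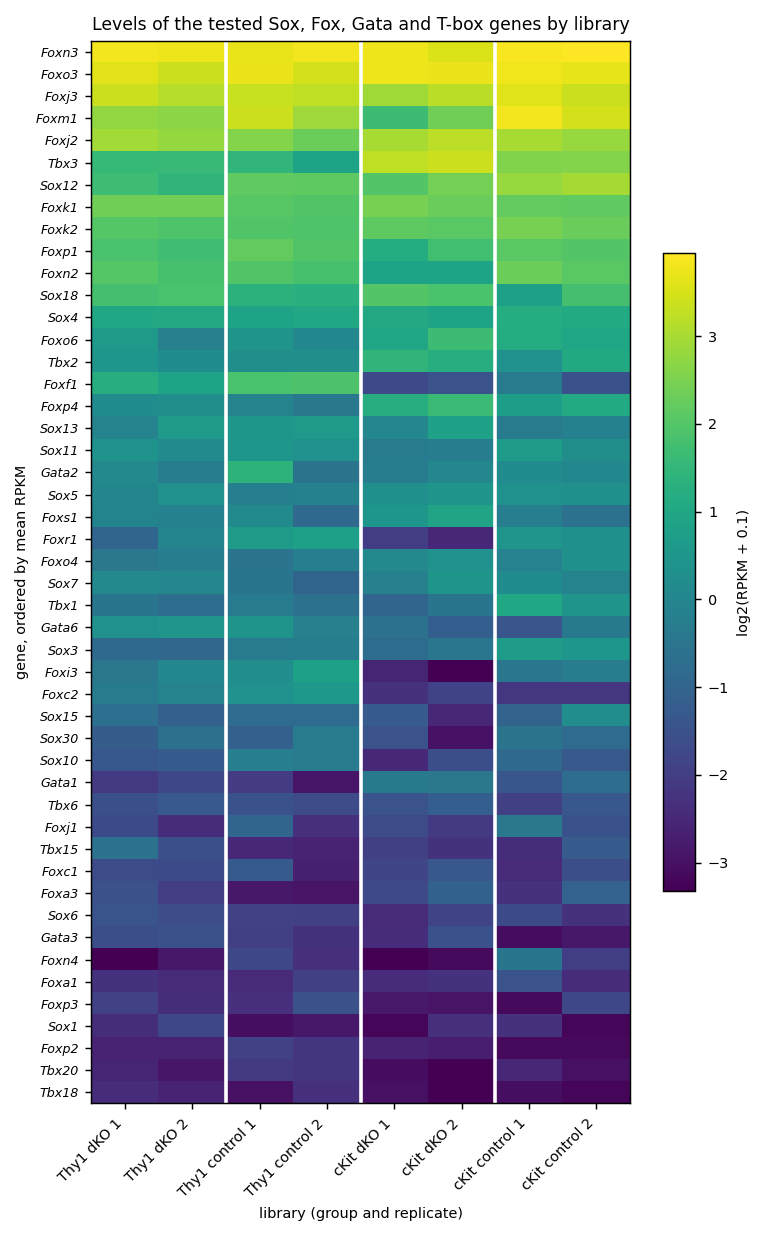
Level of the 48 tested members in each of the 8 libraries, as log2(RPKM + 0.1) in colour, with genes ordered by mean RPKM from top to bottom and libraries grouped by population and genotype. Fox genes fill the first 5 places, and Tbx3, Foxm1, Foxf1 and Foxr1 change colour between groups.

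Of the 78 members, 48 passed the filter on low counts and were tested, and 30 did not. Those not tested held at most 46 counts over the 8 libraries together, and their highest mean level was 0.0914 RPKM. Foxb1, Foxb2, Foxi2 and Tbx19 had 0 counts in all 8 libraries. A count of 0 allows up to 3 counts in a library, so these 4 genes were not detectable at this depth.

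Promoters of the members are shown for 4 that passed the test in cKit dKO, a pair that was higher and a pair that was lower, chosen after their values were seen and because the RefSeq start lies at the deposited gene start. Each runs from 250 bases before to 50 bases after the start in GRCm38.p6, reading 5′ to 3′ on the strand of the gene, with CG dinucleotides in capitals. Foxp4 is at chr17:47924583-47924882 on the minus strand, Foxj2 at chr6:122819934-122820233 on the plus strand, Foxi3 at chr6:70956356-70956655 on the plus strand and Foxr1 at chr9:44440819-44441118 on the minus strand.
Foxp4: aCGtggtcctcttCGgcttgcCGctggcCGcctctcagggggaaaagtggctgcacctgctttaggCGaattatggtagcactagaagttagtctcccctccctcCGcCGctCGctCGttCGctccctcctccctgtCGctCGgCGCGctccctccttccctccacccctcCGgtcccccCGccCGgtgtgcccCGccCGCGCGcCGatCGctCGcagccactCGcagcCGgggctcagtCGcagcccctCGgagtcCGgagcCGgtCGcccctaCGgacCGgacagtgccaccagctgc
Foxj2: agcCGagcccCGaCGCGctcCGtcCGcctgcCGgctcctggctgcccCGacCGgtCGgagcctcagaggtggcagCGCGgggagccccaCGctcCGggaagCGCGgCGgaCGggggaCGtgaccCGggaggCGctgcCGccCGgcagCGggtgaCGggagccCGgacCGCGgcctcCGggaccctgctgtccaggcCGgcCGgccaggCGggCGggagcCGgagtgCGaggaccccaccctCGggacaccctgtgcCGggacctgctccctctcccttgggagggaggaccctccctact
Foxi3: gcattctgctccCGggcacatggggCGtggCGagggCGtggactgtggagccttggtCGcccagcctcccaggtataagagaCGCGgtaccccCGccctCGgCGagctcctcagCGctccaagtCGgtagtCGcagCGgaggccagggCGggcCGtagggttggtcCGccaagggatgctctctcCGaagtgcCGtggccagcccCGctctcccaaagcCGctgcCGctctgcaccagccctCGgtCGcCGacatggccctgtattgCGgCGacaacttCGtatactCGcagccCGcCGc
Foxr1: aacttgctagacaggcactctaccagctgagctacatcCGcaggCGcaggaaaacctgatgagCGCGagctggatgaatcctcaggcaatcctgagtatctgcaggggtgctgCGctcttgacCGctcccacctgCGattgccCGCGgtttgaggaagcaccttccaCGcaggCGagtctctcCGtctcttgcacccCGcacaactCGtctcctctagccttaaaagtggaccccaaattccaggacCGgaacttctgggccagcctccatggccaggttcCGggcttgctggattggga

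These 300 bases held 33 CG dinucleotides in Foxp4, 37 in Foxj2, 31 in Foxi3 and 16 in Foxr1, and only the Foxr1 promoter of the 4 had fewer than 31. RefSeq promoters were matched for 52 members (66 promoters). Of these promoters 47.0% had at least 20 CG dinucleotides, against 26.5% of all 32851 promoters of the same length, and the medians were 15.5 and 7. Short motifs were searched on both strands as exact letters: the forkhead motif TGTTTAC was in 3.03% of member promoters and 3.65% of all promoters, the Sox motif AACAAT in 4.55% and 10.7%, the Gata motif AGATAA in 7.58% and 11.2%, and the T-box motif AGGTGTGA in 0 member promoters and 1.28% of all. The E-box CACGTG was in 3.03% of member promoters and 7.15% of all promoters, and the E2F motif GCGGGAA in 6.06% and 4.60%. A match is not evidence of binding, and no match says only that these letters are not in this window.

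In cKit dKO, the T-box genes Tbx3 and Tbx2 and Fox genes such as Foxp4, Foxj2 and Foxk1 were higher than in cKit control. Foxm1, Foxn2, Foxr1 and Foxi3 were lower. The calls of Tbx2, Foxp4, Foxj2 and Foxk1 were lost in another fit given below. In this comparison, 18 of the 48 tested members passed edgeR's quasi-likelihood test at an adjusted p under 0.05, where 28.6% of all 14907 tested genes did. The members called were 37.5% of those tested. Of the 18, 11 were higher in cKit dKO (Foxj2, Foxk1, Foxo3, Foxp2, Foxp4, Foxs1, Gata3, Sox13, Sox18, Tbx2 and Tbx3) and 7 were lower (Foxi3, Foxm1, Foxn2, Foxn4, Foxr1, Sox11 and Tbx1), where 13.2% and 15.4% of all genes were called in those directions. By family, 11 of 24 tested Fox genes passed, 3 of 13 Sox genes, 3 of 7 Tbx genes and 1 of 4 Gata genes. The median log2 fold change was 0.12 over the tested members and 0.03 over all tested genes. Tbx3, Foxm1, Foxn2, Foxr1 and Foxi3 stayed past the threshold under all 18 other settings and omissions of a library.

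With library totals in place of TMM factors 9 members were higher and 9 lower, and with relative log expression scaling 11 were higher and 6 lower. In limma fits of log2 RPKM, which change the input, the scaling and the test together, 2 were higher and 12 lower at either pseudocount. The median change of all tested genes was -0.105 (library totals), -0.285 (limma, pseudocount 0.1) and -0.156 (limma, pseudocount 1), against 0.034 with TMM. Fewer members were called with any library left out, and fewest without cKit control replicate 1. The share of all genes called was also below 28.6% in each of these fits, and lowest without that library.

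**Figure D2:**
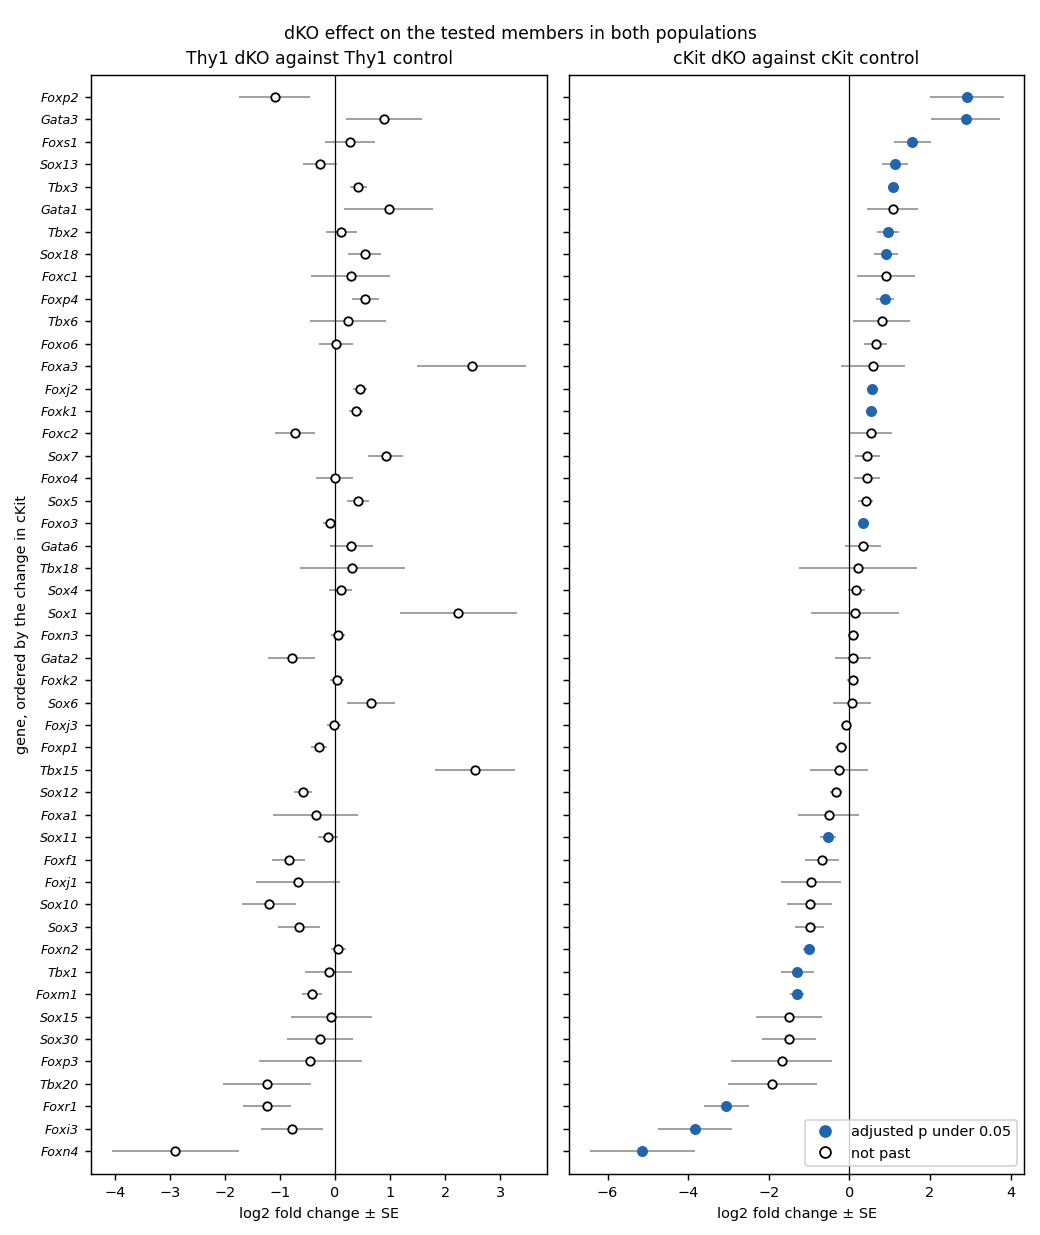
log2 fold change of each tested member with its standard error, in Thy1 dKO against Thy1 control (left) and cKit dKO against cKit control (right), ordered by the change in cKit, on separate horizontal scales. Filled points passed an edgeR adjusted p under 0.05: none on the left, 18 on the right.

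The T-box pair Tbx2 and Tbx3 was higher in cKit dKO. Tbx3 (mm10 chromosome 5, 119670669 to 119684601) stood at 183 and 192 CPM in the cKit dKO libraries, against 83.8 and 92.4 CPM in cKit control. It stood at 49.6 and 52.1 CPM in Thy1 dKO, against 44.1 and 32.3 CPM in Thy1 control. Both cKit dKO libraries were above every other library, and within each population the dKO libraries lay above the control ones. The log2 fold change in cKit was 1.09 ± 0.14 (SE), with an edgeR adjusted p = 6.53e-05.

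Tbx2, a repressor that with Tbx3 patterns heart and limb, stood at 36.3 and 28.9 CPM in cKit dKO, against 12.0 and 22.2 CPM in cKit control. The groups did not overlap, although the 2 control libraries lay apart. Its log2 fold change was 0.95 ± 0.27, with an edgeR adjusted p = 0.0163, and the call was lost without cKit control replicate 1 (0.55, edgeR adjusted p = 0.189) or without cKit dKO replicate 1 (0.82, edgeR adjusted p = 0.0633). With limma on RPKM, Tbx3 stayed past the test (0.73 at pseudocount 0.1, adjusted p = 0.0133) and Tbx2 did not (0.61, adjusted p = 0.125). Of their subfamily relatives, Tbx4 and Tbx5 were below the filter.

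Among the Fox genes that were higher, Foxp4, a forkhead repressor of lung and nervous system development, had 34.3 and 44.4 CPM in cKit dKO, against 17.5 and 25.5 CPM in cKit control. Its log2 fold change was 0.88 ± 0.23 (edgeR adjusted p = 0.00995). The groups did not overlap, yet the call was lost without cKit control replicate 1 (0.62, edgeR adjusted p = 0.127) or without cKit dKO replicate 2 (0.71, edgeR adjusted p = 0.0557). Foxj2, a broadly expressed forkhead activator, had 154 and 170.0 CPM in cKit dKO, against 113 and 108 CPM in cKit control, a log2 difference of 0.55 ± 0.12 (edgeR adjusted p = 0.00324). Foxk1, a regulator of muscle progenitors and of autophagy genes, had 157 and 129 CPM in cKit dKO, against 94.7 and 102 CPM in cKit control, a log2 difference of 0.54 ± 0.13 (edgeR adjusted p = 0.00490). Both kept their call with any library left out. None of these 3 genes passed with limma on RPKM at pseudocount 0.1, where Foxp4 gave 0.51 (adjusted p = 0.180), Foxj2 0.20 (adjusted p = 0.375) and Foxk1 0.18 (adjusted p = 0.396).

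Foxo3 had 151 and 138 CPM in cKit dKO, against 114 and 113 CPM in cKit control, a log2 difference of 0.35 ± 0.12 at the edge of the threshold (edgeR adjusted p = 0.0448). Leaving out any of 7 of the 8 libraries, all but cKit dKO replicate 2, ended that call, with edgeR adjusted p up to 0.132. It was also lost with library totals (0.21, edgeR adjusted p = 0.239), with no filter, with the largest transcript entry, with the 4 libraries compared alone and with limma on RPKM (0.00, adjusted p = 0.996). Foxp2, a forkhead factor of neural circuits, had 9 and 7 counts in cKit dKO, against 2 and 1 counts in cKit control. This is an 8.19-fold higher count relative to library size, with a 95% counting interval of 2.34 to 43.9. The fitted log2 fold change was 2.92 ± 0.91 (edgeR adjusted p = 0.0259). Foxp2 has 2 transcript entries, so its summed counts may hold some reads more than once, and the interval may be too narrow. It too lost the call without 7 of the 8 libraries, all but cKit dKO replicate 2, with edgeR adjusted p up to 0.120, and with the largest transcript entry (edgeR adjusted p = 0.134) and limma on RPKM (0.48, adjusted p = 0.333 at pseudocount 0.1).

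Several of the higher members are known from vessels and stroma. Foxs1, a forkhead gene of pericytes, had 6.72 and 8.63 CPM in cKit dKO, against 2.86 and 2.30 CPM in cKit control, a log2 difference of 1.56 ± 0.46 (edgeR adjusted p = 0.0195). Sox18, which acts in endothelial and lymphatic development, had 24.5 and 21.5 CPM in cKit dKO, against 7.71 and 17.1 CPM in cKit control, a log2 difference of 0.91 ± 0.30 (edgeR adjusted p = 0.0333). Neither gene's groups overlapped, but the 2 control libraries of Sox18 lay far apart.

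Of the 12 members listed as endothelial and vascular, 11 were tested, and in cKit dKO 4 were higher (Sox18, Foxs1, Tbx2 and Tbx3), 1 was lower (Tbx1) and 6 did not pass, where 13.2% of all genes were called higher and 15.4% lower. The median log2 fold change of the list was 0.53, beside 0.03 over all genes. Summed endothelial markers (10 genes) stood at 446 and 463 CPM in cKit dKO, against 225 and 224 CPM in cKit control, with 5 of 10 called higher and none at 0. Cdh5 made up most of that sum, at a mean of 345 CPM in cKit dKO and 171 CPM in cKit control. The median log2 fold change of these markers was 1.02. Summed peritubular and stromal markers (12 genes) stood at 6285 and 5038 CPM in cKit dKO, against 3237 and 3157 CPM in cKit control, with 9 of 12 called higher and none at 0. Tbx2 and Tbx3 are also listed for mesenchyme and gonadal soma. Between the controls, Tbx3 was higher in cKit (log2 fold change 1.21), where the endothelial markers had a median of -0.94. Of 6 Leydig markers, 4 were called higher in cKit dKO, 1 (Cyp17a1) lower and 1 did not pass. The part of all these cells in the changes of the members was not tested.

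The call of Foxs1 was lost without cKit control replicate 1 (1.73, edgeR adjusted p = 0.0676), cKit control replicate 2 (1.47, edgeR adjusted p = 0.0726) or cKit dKO replicate 2 (1.40, edgeR adjusted p = 0.0653). That of Sox18 was lost without cKit control replicate 1 (0.43, edgeR adjusted p = 0.309) or cKit dKO replicate 1 (0.87, edgeR adjusted p = 0.0785), with library totals (0.78, edgeR adjusted p = 0.0545), with the largest transcript entry (0.90, edgeR adjusted p = 0.0765), with the 4 libraries compared alone (0.91, edgeR adjusted p = 0.0654) and with limma on RPKM (0.63, adjusted p = 0.103 at pseudocount 0.1).

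Sox13, a SoxD gene, had 12.8 and 21.6 CPM in cKit dKO, against 7.02 and 8.81 CPM in cKit control, a log2 difference of 1.13 ± 0.32 (edgeR adjusted p = 0.0162). Its SoxD relatives Sox5 and Sox6, which steer cartilage and oligodendrocyte development, did not pass (0.40 ± 0.19 and 0.07 ± 0.47). Gata3, a regulator of T helper cells and of trophoblast, had 7 and 19 counts in cKit dKO, against 2 and 3 counts in cKit control, a log2 difference of 2.89 ± 0.86 (edgeR adjusted p = 0.0204). For both genes the groups did not overlap and the 2 cKit dKO libraries differed widely. The calls were lost without cKit control replicate 1 (Sox13 0.97, edgeR adjusted p = 0.131, and Gata3 2.37, edgeR adjusted p = 0.163) and on omission of cKit dKO replicate 2 (Sox13 0.74, edgeR adjusted p = 0.134, and Gata3 2.06, edgeR adjusted p = 0.175). With limma on RPKM at pseudocount 0.1 neither passed (Sox13 0.67, adjusted p = 0.155, and Gata3 1.01, adjusted p = 0.0745). Gata1 and Gata2, which act in erythroid, mast and progenitor cells of the blood, did not pass (1.07 ± 0.64 and 0.09 ± 0.45), nor did Gata6 (0.34 ± 0.44).

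Foxm1 (mm10 chromosome 6, 128362994 to 128375886) was lower in cKit dKO. It had 51.6 and 80.3 CPM in cKit dKO, against 175 and 149.7 CPM in cKit control, and 104 and 98.4 CPM in Thy1 dKO, against 152 and 118 CPM in Thy1 control. The cKit dKO libraries were below all others. The log2 fold change in cKit was -1.30 ± 0.18 (edgeR adjusted p = 1.14e-04). A same-strand gene, 4933413G19Rik, overlaps it but held 33 counts over all libraries beside 7837 for Foxm1.

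Of 10 listed FOXM1 targets, all tested, 8 fell in cKit dKO (Ccnb1, Plk1, Cenpf, Cenpa, Aurkb, Birc5, Cdc20 and Nek2), none was called higher, and Ccnb2 and Cdc25b did not pass, where 15.4% of all genes were called lower. The median log2 fold change of the list was -0.97, and the examples were picked after their values were seen. Nek2, a centrosome kinase, averaged 15.4 ± 5.83 CPM in cKit dKO and 63.8 ± 3.08 CPM in cKit control (SD, n = 2 each), a log2 difference of -2.05 ± 0.20 (edgeR adjusted p = 7.53e-06). Ccnb1, the mitotic cyclin, averaged 20.9 ± 5.75 CPM in cKit dKO and 71.0 ± 11.4 CPM in cKit control, a log2 difference of -1.77 ± 0.20 (edgeR adjusted p = 2.46e-05). In Thy1 dKO none of the 10 passed in either direction, with a median of -0.13, and the interaction of genotype and population called 4 of them lower (Ccnb1, Plk1, Cenpf and Nek2), beside 4.06% of all genes. The core germ cell genes moved alongside in cKit: 10 of 12 were called lower in cKit dKO, and Nanos3 was at 0 in 1 cKit dKO library. Their part in the changes of Foxm1, its targets and the other members that were lower in cKit dKO was not tested.

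Foxn2 (mm10 chromosome 17, 88440712 to 88490533), a relative of Foxn3, had 34.9 and 32.6 CPM in cKit dKO, against 70.4 and 64.8 CPM in cKit control. In the other population it had 72.1 and 62.6 CPM in Thy1 dKO, against 65.1 and 64.7 CPM in Thy1 control. The cKit dKO libraries stood apart below the other 6, which lay close together. The log2 fold change was -1.0 ± 0.14 in cKit (edgeR adjusted p = 1.42e-04) and 0.06 ± 0.14 in Thy1 (edgeR adjusted p = 0.911).

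Foxr1 had 0.961 and 0.471 CPM in cKit dKO (6 and 3 counts), against 6.15 and 6.00 CPM in cKit control (71 and 47 counts). It had 2.48 and 5.17 CPM in Thy1 dKO, against 8.02 and 9.86 CPM in Thy1 control. In both populations the dKO libraries lay below the control ones, and the log2 fold change was -3.06 ± 0.56 in cKit (edgeR adjusted p = 9.24e-04) and -1.24 ± 0.44 in Thy1 (edgeR adjusted p = 0.205). Foxi3, an ectodermal factor of ear, tooth and hair development, had 2 and 0 counts in cKit dKO, against 25 and 22 counts in cKit control, which is 15.3-fold lower relative to library size (95% counting interval 4.01 to 130.1). The fitted change of Foxi3 had an edgeR adjusted p = 0.00550. In Thy1 it had 2.70 and 4.08 CPM in Thy1 dKO, against 4.34 and 7.28 CPM in Thy1 control, and did not pass (edgeR adjusted p = 0.581).

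Foxn4, a retinal and spinal cord progenitor factor, had 0 and 1 counts in cKit dKO, against 59 and 11 counts in cKit control, which is 45.6-fold lower (95% counting interval 7.92 to 1826). Most of its cKit control counts were in replicate 1, and without that library the call was lost (edgeR adjusted p = 0.143). Sox11, a SoxC gene of neural progenitors, had 22.7 and 23.2 CPM in cKit dKO, against 37.1 and 29.1 CPM in cKit control, a log2 difference of -0.53 ± 0.19 (edgeR adjusted p = 0.0440). Its call was lost without any of 7 of the 8 libraries, all but cKit control replicate 2, with edgeR adjusted p up to 0.319. It was lost too with DESeq2 (-0.48, adjusted p = 0.0979), relative log expression scaling (-0.48, edgeR adjusted p = 0.0653), the largest transcript entry (-0.53, edgeR adjusted p = 0.0612) and the 4 libraries compared alone (-0.53, edgeR adjusted p = 0.105). The SoxC relatives Sox4 and Sox12 did not pass (0.17 ± 0.21 and -0.34 ± 0.15), though Sox12 was called lower with library totals and with limma on RPKM. Tbx1, a factor of the pharyngeal arches, had 2.88 and 3.92 CPM in cKit dKO, against 9.70 and 6.89 CPM in cKit control, a log2 difference of -1.29 ± 0.41 (edgeR adjusted p = 0.0292), lost without cKit control replicate 1 (-1.02, edgeR adjusted p = 0.207) or cKit dKO replicate 1 (-1.04, edgeR adjusted p = 0.123), with DESeq2 (-1.24, adjusted p = 0.0551) and with the 4 libraries compared alone (-1.29, edgeR adjusted p = 0.0604).

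**Figure D3:**
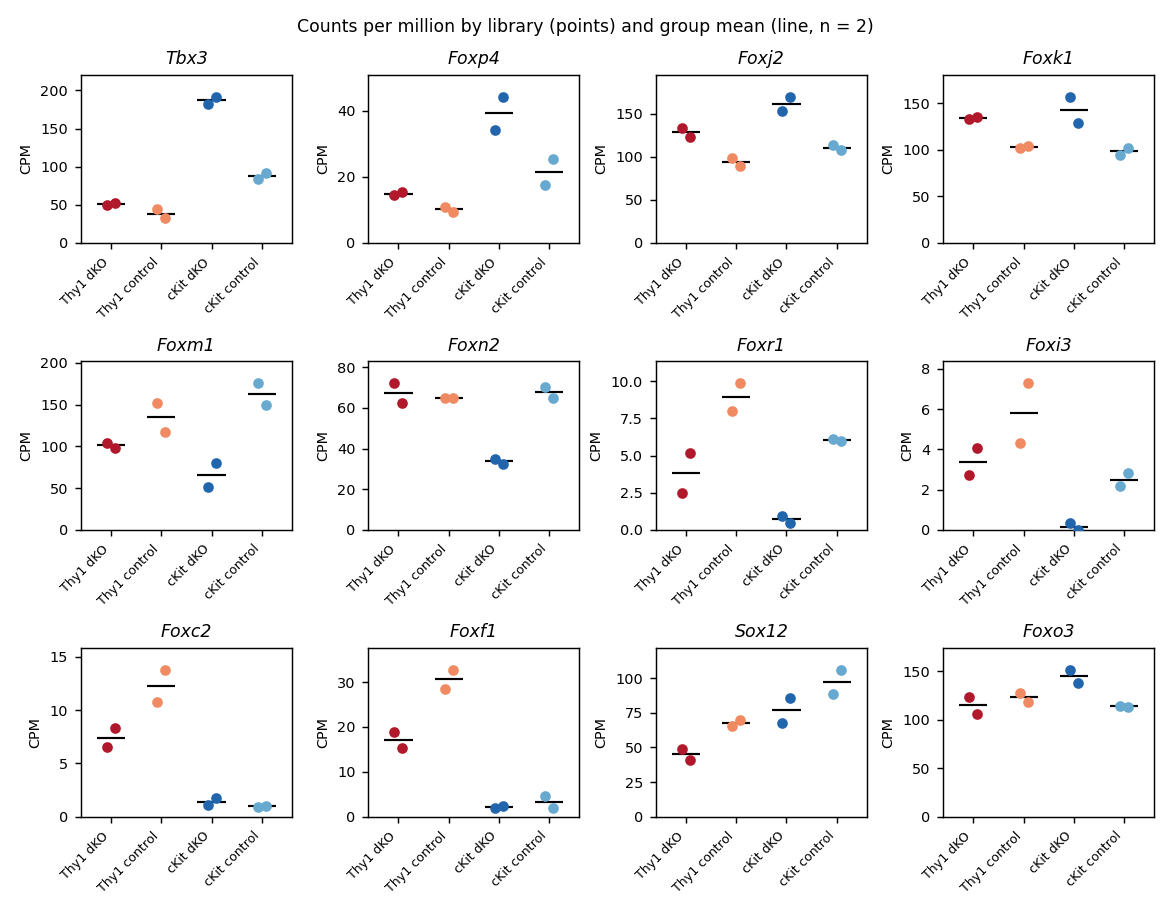
CPM of 12 members in each library (points) with the group mean (line), in the order Thy1 dKO, Thy1 control, cKit dKO, cKit control, each panel with its own vertical axis from 0. Tbx3 stands at 183 and 192 CPM in cKit dKO, Foxn2 is lower there than in the other 3 groups, and Foxc2 and Foxf1 are low in both cKit groups.

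Among the 10 members of highest mean RPKM, Foxn3, Foxj3, Foxk2, Foxp1 and Sox12 did not pass in cKit dKO, with log2 fold changes of 0.10 ± 0.13, -0.09 ± 0.12, 0.08 ± 0.13, -0.20 ± 0.15 and -0.34 ± 0.15 in that order. The small positive values of Foxn3 and Foxk2 turned negative with library totals (-0.04 and -0.06) and with limma on RPKM. Sox12 was called lower with library totals and with limma on RPKM. Foxj3 was called lower with limma on RPKM (lowest adjusted p = 0.0486), and Foxp1 with the largest transcript entry (edgeR adjusted p = 0.0138). Members were also counted by role, where 13.2% of all genes were called higher and 15.4% lower. Of 7 members listed for the germ line, all tested, Foxo3 and Foxj2 were higher, Foxr1 was lower and 4 did not pass. Sox3, a SoxB1 gene of neural progenitors that undifferentiated mouse spermatogonia also express, was among those 4 and was picked after its values were seen, with 4.0 and 4.71 CPM in cKit dKO, against 8.92 and 8.42 CPM in cKit control (log2 fold change -0.99 ± 0.37, edgeR adjusted p = 0.0579). Of 14 members listed as proliferation genes and broadly expressed, 5 were higher, 3 lower and 6 did not pass. None of the 3 tested members listed for endoderm passed, and of the 6 tested neural and ectodermal ones Foxp2 was higher and Sox11 lower. Of 6 tested members listed for blood and immune cells, Gata3 was higher and 5 did not pass. Of 8 tested ones listed for mesenchyme and gonadal soma, Tbx2 and Tbx3 were higher, Sox11 was lower and 5 did not pass. These lists share members.

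In Thy1 dKO against Thy1 control, 0 of the 48 tested members passed the edgeR test, where 0.624% of all tested genes did (0.362% higher and 0.262% lower). An unadjusted p under 0.05 was reached by 13 of the 48 tested members, and by 2059 of all 14907 tested genes (13.8%). DESeq2 called 2 of the 48 members, Foxj2 (higher) and Sox12 (lower), and 2.24% of all genes. The fit of these 4 libraries alone called 6 of the 44 members it tested, 3 in each direction. It called 870 of all 14374 genes it tested (6.05%). The median log2 fold change was 0.00 over the members, 24 above and 24 below 0, and 0.03 over all genes.

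Foxj2 had 134 and 123 CPM in Thy1 dKO, against 98.9 and 89.3 CPM in Thy1 control (log2 fold change 0.45 ± 0.12, edgeR adjusted p = 0.0917). Sox12, the third SoxC gene, had 49.1 and 41.3 CPM in Thy1 dKO, against 65.2 and 70.0 CPM in Thy1 control (-0.58 ± 0.16, edgeR adjusted p = 0.0948). The groups of both genes did not overlap. Tbx15, a factor of mesenchyme and skeleton chosen after its values were seen, had 7.10 and 3.13 CPM in Thy1 dKO, against 0.921 and 0.822 CPM in Thy1 control (2.54 ± 0.73, edgeR adjusted p = 0.117).

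Foxf1 and Foxc2, both factors of mesenchyme and vessels, had lower values in Thy1 dKO without passing. Foxf1 had 18.8 and 15.3 CPM in Thy1 dKO, against 28.5 and 32.6 CPM in Thy1 control (-0.84 ± 0.30, edgeR adjusted p = 0.203). Foxc2, which in the mouse also marks a subset of undifferentiated spermatogonia, had 6.53 and 8.30 CPM in Thy1 dKO, against 10.8 and 13.7 CPM in Thy1 control (-0.73 ± 0.36, edgeR adjusted p = 0.391). Their groups did not overlap. Summed endothelial markers stood at 532 and 539 CPM in Thy1 dKO, against 362.0 and 361.5 CPM in Thy1 control, with 1 of 10, Cdh5, called and none at 0. Cdh5 made up most of that sum, at a mean of 381 CPM in Thy1 dKO and 266 CPM in Thy1 control. Peritubular and stromal markers stood at 11740 and 12200 CPM in Thy1 dKO, against 14010 and 10430 CPM in Thy1 control, with none of 12 called and none at 0. The sum of 10 markers of undifferentiated spermatogonia was 488 and 468 CPM in Thy1 dKO, against 673 and 728 CPM in Thy1 control, with Sall4, Lin28a and Neurog3 called lower and none at 0. Their part in the values of Foxf1 and Foxc2 was not tested.

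The values of the 18 members called in cKit dKO had the same sign in Thy1 dKO for 14 (77.8%), beside 79.2% of all 4259 genes called in cKit dKO, so the share was near the background. With both dKO libraries outside both control libraries and a log2 fold change of at least 1 in the same direction in both populations, there were 3 of the 48 members (6.25%), Foxr1, Foxn4 and Tbx20, beside 1.39% of all tested genes. Foxn4 and Tbx20 rest on few counts, and the share of all genes was not matched for count level, so these shares are not comparable. Foxn4 had 0 and 3 counts in Thy1 dKO, against 15 and 9 counts in Thy1 control, 8.05-fold lower (95% counting interval 2.45 to 41.8). Tbx20, a heart factor, passed in neither population, with 13 and 6 counts in Thy1 dKO, against 21 and 23 counts in Thy1 control, and 3 and 0 counts in cKit dKO, against 15 and 4 counts in cKit control.

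The dKO effect in cKit minus that in Thy1 was tested as an interaction, and 2 of the 48 members passed, where 5.92% of all tested genes did (1.86% with a higher and 4.06% with a lower effect in cKit). The difference was -1.06 ± 0.20 for Foxn2 (edgeR adjusted p = 0.00650), with the values given above. It was 4.02 ± 1.12 for Foxp2 (edgeR adjusted p = 0.0473), which had 1.44 and 1.10 CPM in cKit dKO, against 0.173 and 0.128 CPM in cKit control, and 1.46 and 1.36 CPM in Thy1 dKO, against 3.42 and 2.70 CPM in Thy1 control. The cKit control libraries of Foxp2 held 3 counts together. Without Thy1 dKO replicate 1 the Foxn2 difference was -0.95 (edgeR adjusted p = 0.0664). The Foxp2 call was lost without any of 7 of the 8 libraries, all but cKit dKO replicate 2, with edgeR adjusted p up to 0.203. It was also lost with at least 1 CPM in 2 libraries (4.03, edgeR adjusted p = 0.0510), with the largest transcript entry (5.13, edgeR adjusted p = 0.137) and with limma on RPKM (1.03, adjusted p = 0.220 at pseudocount 0.1). Foxm1 (-0.89 ± 0.25, edgeR adjusted p = 0.0514) and Tbx3 (0.67 ± 0.21, edgeR adjusted p = 0.0692) did not pass. Of the 12 core germ cell genes the interaction called 10 lower and none higher, with a median of -1.41. Their part in the differences of the members was not tested.

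Between the control populations, cKit control against Thy1 control, 8 of the 48 members passed the edgeR test (16.7%), where 19.7% of all genes did (9.46% higher and 10.3% lower in cKit). Tbx3, Foxp4 and Sox12 were higher in cKit control, and Foxc2, Foxf1, Foxp2, Gata6 and Sox13 were lower. The split was the same with library totals and with relative log expression scaling. With limma on RPKM, which changes the input, the scaling and the test together, it was 6 higher and 3 lower, and the median of all genes was 0.226 (pseudocount 0.1), against 0.011 with TMM. Without Thy1 control replicate 1 or replicate 2 fewer members were called, and the share of all genes called fell below 19.7% too.

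Foxf1 had 4.68 and 1.91 CPM in cKit control, against 28.5 and 32.6 CPM in Thy1 control, a log2 difference of -3.16 ± 0.34 (edgeR adjusted p = 6.65e-06). Foxc2 had 0.953 and 1.02 CPM in cKit control, against 10.8 and 13.7 CPM in Thy1 control, -3.62 ± 0.44 (edgeR adjusted p = 2.46e-05). Foxp2 held 3 counts in cKit control, against 49 in Thy1 control, 19.6-fold lower (95% counting interval 6.34 to 98.5). That interval too may be too narrow if its 2 transcript entries share reads. In all 3 genes both cKit control libraries were below both Thy1 control libraries, and Foxf1, Foxc2 and Tbx3 kept their calls under all 18 alternatives.

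Among those higher in cKit control, Tbx3 had 83.8 and 92.4 CPM in cKit control, against 44.1 and 32.3 CPM in Thy1 control, and its log2 fold change was 1.21 ± 0.15 (edgeR adjusted p = 2.85e-05). Foxp4 gave 1.07 ± 0.24 (edgeR adjusted p = 0.00557), lost without Thy1 control replicate 2 (0.95, edgeR adjusted p = 0.0690) or cKit control replicate 2 (0.77, edgeR adjusted p = 0.0805). Sox12 had 88.5 and 106 CPM in cKit control, against 65.2 and 70.0 CPM in Thy1 control (0.52 ± 0.15, edgeR adjusted p = 0.0247), lost without Thy1 control replicate 1 (0.47, edgeR adjusted p = 0.163), Thy1 control replicate 2 (0.57, edgeR adjusted p = 0.0898) or cKit control replicate 2 (0.38, edgeR adjusted p = 0.207).

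Sox13 had 7.02 and 8.81 CPM in cKit control, against 15.7 and 18.6 CPM in Thy1 control (-1.12 ± 0.32, edgeR adjusted p = 0.0210), lost without Thy1 control replicate 1 (-1.24, edgeR adjusted p = 0.0554), Thy1 control replicate 2 (-0.99, edgeR adjusted p = 0.142) or cKit control replicate 1 (-0.96, edgeR adjusted p = 0.141). Gata6, a factor of endoderm, heart and gonadal soma, had 2.51 and 6.51 CPM in cKit control, against 13.3 and 9.39 CPM in Thy1 control (-1.36 ± 0.42, edgeR adjusted p = 0.0310), lost in 4 of the 8 omissions with edgeR adjusted p up to 0.242, those of either Thy1 control library, Thy1 dKO replicate 2 and cKit control replicate 1. With the largest transcript entry Sox12, Sox13 and Gata6 were not called (edgeR adjusted p = 0.0585, 0.0582 and 0.0825), and with limma on RPKM at pseudocount 0.1 Sox13 and Gata6 were not (adjusted p = 0.108 and 0.0783). All 12 peritubular and stromal markers were called lower in cKit control than in Thy1 control, all 6 Leydig markers higher, 7 of 7 tested mast cell markers higher and 7 of 8 macrophage markers lower. Their part in these differences was not tested.

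In dKO cells, cKit dKO against Thy1 dKO, 16 of the 48 members passed (33.3%), where 34.8% of all genes did. Of the 16, 8 were higher and 8 lower, beside 14.8% of all genes called higher and 20% called lower. This comparison shares its cKit dKO libraries with the one above on the dKO in cKit, and its Thy1 dKO libraries with the one in Thy1. Foxc2, Foxf1, Gata6, Foxp4, Sox12 and Tbx3 passed here and between the controls, each in the same direction in both. The Gata6 call here was lost without Thy1 dKO replicate 1 (-1.39), Thy1 dKO replicate 2 (-1.24) or cKit dKO replicate 2 (-0.91). It was also lost with the largest transcript entry (-1.32, edgeR adjusted p = 0.0577). Tbx3 had 183 and 192 CPM in cKit dKO, against 49.6 and 52.1 CPM in Thy1 dKO, a log2 difference of 1.88 ± 0.15 (edgeR adjusted p = 3.90e-07), and Foxf1 had 1.92 and 2.35 CPM in cKit dKO, against 18.8 and 15.3 CPM in Thy1 dKO, -2.99 ± 0.38 (edgeR adjusted p = 3.08e-05). Without Thy1 dKO replicate 1 or replicate 2 fewer members were called, and the share of all genes called fell below 34.8% too.

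Passing in the dKO comparison alone, with no test that it differs from the controls other than the interaction above, were Foxj2, Foxo3, Foxo6, Gata1 and Tbx2 (higher) and Foxi3, Foxm1, Foxn2, Foxr1 and Sox11 (lower). Of these, Foxj2, Foxo3 and Sox11 did not pass with limma on RPKM at pseudocount 0.1 (adjusted p = 0.252, 0.195 and 0.136) and were lost in 5, 5 and 7 of the 8 omissions of a library. The Foxm1 call was lost without Thy1 dKO replicate 1 (-0.57), Thy1 dKO replicate 2 (-0.65) or cKit dKO replicate 1 (-0.25). Those of Foxr1 and Tbx2 were lost without Thy1 dKO replicate 2, where Foxr1 gave -1.77. Foxo6, a forkhead gene best known from the brain, had 18.3 and 28.4 CPM in cKit dKO, against 12.5 and 7.22 CPM in Thy1 dKO (1.23 ± 0.30, edgeR adjusted p = 0.00511), lost without Thy1 dKO replicate 2 (0.90, edgeR adjusted p = 0.0789). Gata1 had 31 and 28 counts in cKit dKO, against 8 and 10 counts in Thy1 dKO (2.04 ± 0.68, edgeR adjusted p = 0.0305), lost without Thy1 dKO replicate 1 (1.77, edgeR adjusted p = 0.215), Thy1 dKO replicate 2 (2.36, edgeR adjusted p = 0.108) or cKit dKO replicate 1 (2.04, edgeR adjusted p = 0.0703). GATA1 is used by mast cells and, in the mouse, by Sertoli cells. Summed mast cell markers were 295 and 243 CPM in cKit dKO, against 28.5 and 26.4 CPM in Thy1 dKO, with Fcer1a at 0 in all 4. Summed Sertoli markers were 1232 and 1234 CPM in cKit dKO, against 470 and 471 CPM in Thy1 dKO. Gata4 is part of the Sertoli sum, at a mean of 480 CPM in cKit dKO and 189 CPM in Thy1 dKO. The part of these cells in the value of Gata1 was not tested.

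**Figure D4:**
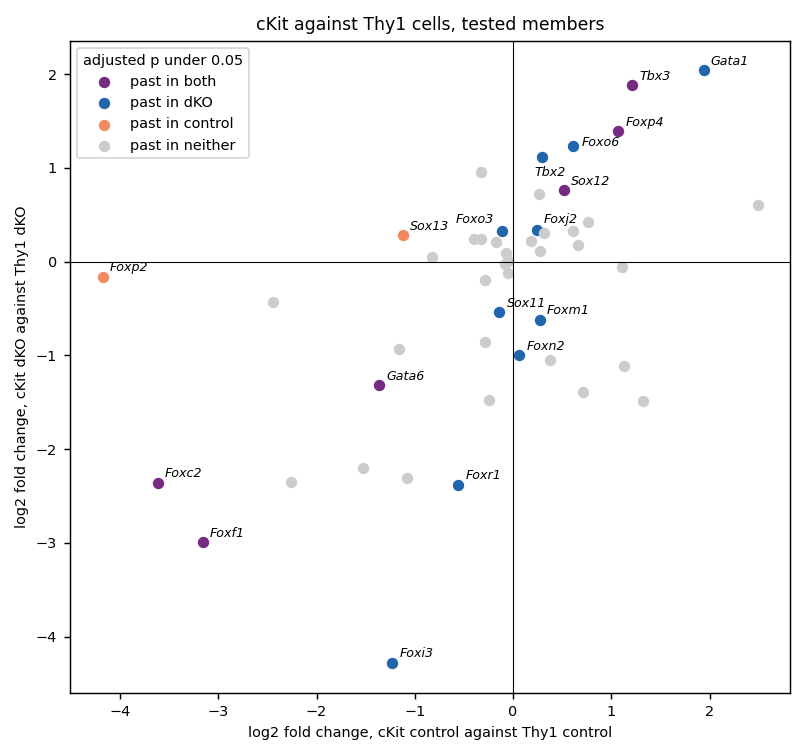
log2 fold change of each tested member in cKit control against Thy1 control (horizontal) and in cKit dKO against Thy1 dKO (vertical), coloured by where the edgeR adjusted p was under 0.05. Foxc2 and Foxf1 lie at the lower left and Tbx3 at the upper right, past the test in both; Foxn2, Foxm1 and Foxr1 are past it in dKO.

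The targets and partners listed with these families gave further counts. Of 9 listed FOXO targets, 5 rose in cKit dKO (Cdkn1b, Ccng2, Irs2, Txnip and Sesn1), none fell and Ret, Kit, Bcl2l11 and Klf2 did not pass, with a median log2 fold change of 0.73 beside 0.03 over all genes. Of all genes 13.2% were called higher and 15.4% lower, which holds for each list here. Txnip, an inhibitor of thioredoxin, averaged 287 ± 63.4 CPM in cKit dKO and 165 ± 31.6 CPM in cKit control (SD, n = 2 each), 0.80 ± 0.15 (edgeR adjusted p = 0.00130), and Sesn1, a stress-induced inhibitor of mTORC1, 64.7 ± 4.97 CPM in cKit dKO and 39.0 ± 0.0530 CPM in cKit control, 0.73 ± 0.14 (edgeR adjusted p = 0.00117). Of 8 endothelial targets, Cdh5, Kdr and Tie1 rose and none fell. These genes are also among the endothelial markers counted above, so the lists are not independent. Of 10 cofactors, 3 rose and none fell: Zfpm2, a Gata partner needed for gonad and heart (1.12 ± 0.27, edgeR adjusted p = 0.00614), and the Wnt effectors Tcf7l1 (0.74 ± 0.18, edgeR adjusted p = 0.00547) and Tcf7l2 (0.88 ± 0.12, edgeR adjusted p = 1.20e-04). In Thy1 dKO, Cdh5 was the single gene called among these 3 lists.

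The 26 members below the filter that had any counts are given as counts only. A few were higher in the Thy1 dKO libraries and were picked after their values were seen. Sox14, a SoxB2 gene of the nervous system, had 6 and 8 counts in Thy1 dKO, against 0 and 0 in Thy1 control, at least 4.64-fold higher, taking 3 counts in both control libraries together as the limit that 0 allows. Sox21, its SoxB2 relative, had 12 and 7 counts in Thy1 dKO, against 1 and 2 in Thy1 control, 6.29-fold higher (95% counting interval 1.85 to 33.2). Foxf2, a mesenchymal relative of Foxf1, had 5 and 12 counts in Thy1 dKO, against 1 and 2 in Thy1 control, 5.63-fold higher (95% counting interval 1.63 to 30.0).

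Foxi1 had 33 of its 41 counts in cKit dKO replicate 2, and Gata5, a factor of endoderm and heart, had 0 and 0 counts in cKit control, against 4 and 8 in Thy1 control, at least 4.81-fold lower by the same limit. Without the filter edgeR gave an adjusted p = 0.282 for Sox14 in Thy1 and 0.00456 for Foxi1 in cKit, a value that rests on that 1 library.

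**Figure D5:**
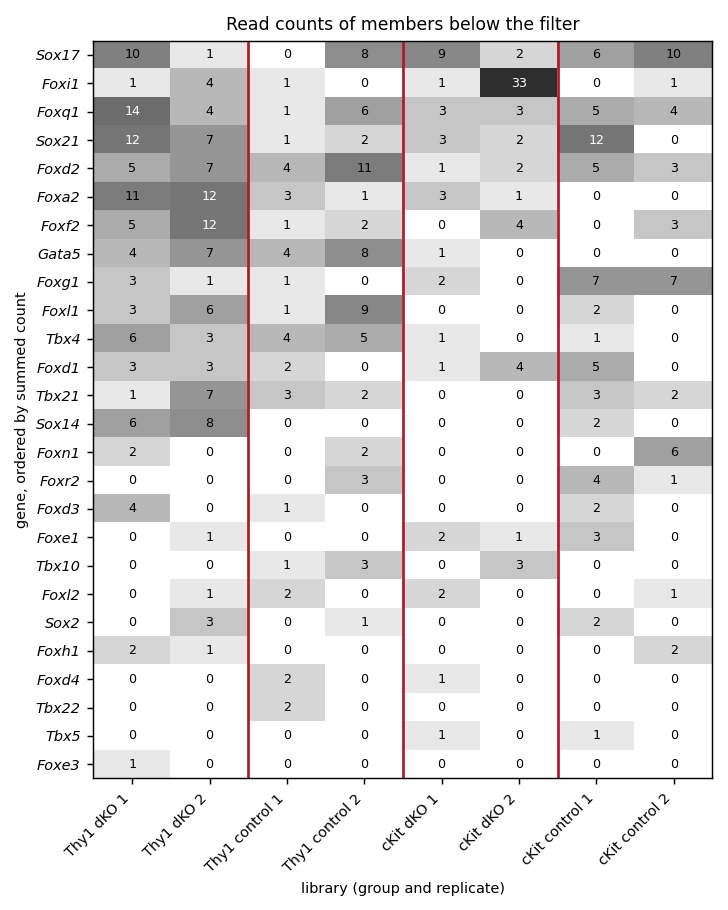
Read counts of the 26 members that were below the filter and had at least 1 count, by library, with darker cells for more counts and red lines between groups. Sox14 has 6 and 8 counts in Thy1 dKO and 0 in Thy1 control, and Foxi1 has 33 counts in 1 cKit dKO library.

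The genes left out by the rule gave these values. Foxo1 was not past the edgeR test in Thy1 dKO (-0.46 ± 0.11) or cKit dKO (-0.21 ± 0.11). Gata4 was higher in Thy1 dKO (0.49 ± 0.10, edgeR adjusted p = 0.0464) and in cKit dKO (0.84 ± 0.10, edgeR adjusted p = 3.85e-05). Sox8 was higher in cKit dKO (1.48 ± 0.35, edgeR adjusted p = 0.00501) and not past in Thy1 dKO (0.49 ± 0.34). Sox9 was higher in cKit dKO (0.87 ± 0.25, edgeR adjusted p = 0.0155) and not past in Thy1 dKO (0.09 ± 0.24). Among 13 tested relatives outside the naming rule, which include these 4, 6 rose in cKit dKO (Bbx, Gata4, Sox8, Sox9, Trps1 and Gatad1) and 2 fell (Mga and Gatad2a), beside 13.2% and 15.4% of all genes. Gata4, Sox8 and Sox9 belong to the Sertoli marker list, whose sum was 1232 and 1234 CPM in cKit dKO, against 746 and 792 CPM in cKit control. That sum includes these genes, so it is not independent of them. Gata4 alone averaged 480 CPM in cKit dKO and 268 CPM in cKit control.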

How the data were processed

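STAR 2.4.2a and the mm10 build are named in the submitters' processing notes. The counting tool and its strand setting are not given in the sources used here, so reads of genes that overlap cannot be assigned by strand. The deposited counts are whole numbers per transcript entry without normalization, and the authors scaled the RPKM values to transcript length and sequencing depth, per the file headers.

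Counts were summed per symbol and tested in edgeR 4.0.16 (R 4.3.3) with filterByExpr (14907 genes kept), TMM scaling, 4 group means and all 8 libraries. The quasi-likelihood test was two-sided, with Benjamini-Hochberg adjustment over all genes, a threshold of 0.05 and 4 residual degrees of freedom. Each SE was derived from the F statistic. Members pass the filter through the groups where they are high, so counts describe tested members only. No molecular identifiers are described, and intervals and floors cover counting error only.

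Alternatives used DESeq2 1.42.0, limma 3.58.1 on log2(RPKM + 0.1 or 1), other scalings and filters, the largest transcript entry, 4 libraries, a replicate block and omission of each library. Named were members past the threshold (up to 25 per comparison), the 10 of highest mean RPKM, those at least 2-fold apart in the same direction in both populations, and the 4 genes left out. Members and lists were chosen with earlier results of these data known. Sequences are from RefSeq. The code was tested on simulated counts with known changes. Of genes changed by 1 on the log2 scale, 59% passed in Thy1 dKO and 59% in cKit dKO. At a change of 2, 83% passed in Thy1 dKO and 88% in cKit dKO. Of the unchanged genes, 14 were called in Thy1 dKO and 12 in cKit dKO.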

Additional observations from a re-analysis of the deposited data

Results flagged for a closer look

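For Foxn2 and, near the threshold, Foxp2 the dKO effect differed between the populations by an interaction test. The same test called 10 of the 12 core germ cell genes lower and none higher, beside 4.06% of all genes called lower. The part of germ cell content in these differences was not tested. For Foxn2 the effect in cKit minus that in Thy1 was -1.06 ± 0.20 on the log2 scale (edgeR adjusted p = 0.00650): both cKit dKO libraries were below both cKit control libraries, while the Thy1 groups overlapped within 62.6 to 72.1 CPM. For Foxp2 it was 4.02 ± 1.12 (edgeR adjusted p = 0.0473): it had 16 counts in cKit dKO, against 3 in cKit control, and 23 in Thy1 dKO, against 49 in Thy1 control. Over the omissions of 1 library the edgeR adjusted p ran from 0.0130 to 0.0664 for Foxn2 and from 0.0452 to 0.203 for Foxp2. The Foxp2 call was lost under 12 of 16 alternatives, among them both limma fits, at least 1 CPM in 2 libraries and the largest transcript entry, and that of Foxn2 under 1 of 17.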

How the results depend on the processing

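Counts of members called changed as follows, and so did the number of members tested and the share of all genes called. With no filter 74 members were tested, and with a library left out 51 to 55. With the largest transcript entry 15.2% of all genes were called between the controls, against 19.7% in the report's fit. In Thy1 dKO, 0 became 3 with no filter, 6 with only the 4 libraries compared and 2 with DESeq2, and 0 to 1 with a library left out. In cKit dKO, 18 became 12 to 19 under the alternatives that keep all libraries of the comparison, where 22.8% to 30.1% of all genes were called. Fewer than 18 were called with any library left out. The genes were not all the same: of 14 called in each limma fit, 9 were among the 18. Between the controls, 8 became 5 with the largest transcript entry and 5 to 11 with a library left out, and in cKit dKO against Thy1 dKO 16 became 7 to 16. The 2 interaction calls stood beside 5.92% of all genes. They became 6 with no filter (7.56% of all genes) and 1 with at least 1 CPM in 2 libraries (5.67%). With the largest transcript entry there was 1 (2.91%), with limma at pseudocount 1 there was 1 (7.03%), and with DESeq2 there were 4 (6.94%). With a library left out the count of interaction calls moved in both directions. The causes were not tested. With the replicate block the counts were 0, 18, 8, 16 and 3. Of those 3 interaction calls, 1 was among the 2 of the report (Foxn2, not Foxp2: 4.04, edgeR adjusted p = 0.0628). Deviations of same-numbered libraries correlated at -0.045 to 0.052 between groups. With 1 deviation per gene in each group, these values cannot tell whether same-numbered libraries were paired. Counts of all genes called in Thy1 dKO were 93 in the report's fit, 157 with the block, 563 with no filter, 870 with only 4 libraries, 334 with DESeq2, 9 with the largest entry, and 6 and 24 with limma.

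Signs turned only for changes that did not pass in the report's fit. In cKit dKO these were Foxn3 (-0.04 with library totals, -0.25 and -0.24 with limma), Foxk2 (-0.06, -0.26 and -0.22 in the same settings) and Gata6 (0.00 with limma at pseudocount 1, rounded from below 0), and in Thy1 dKO Foxo6 (-0.05 and -0.02 with limma). With a library left out the values ran, in cKit dKO, from 0.00 (rounded from below 0) to 0.26 for Foxn3, -0.16 to 0.06 for Foxj3, -0.44 to 0.08 for Foxp1, -1.08 to 0.16 for Foxf1 and -0.23 to 1.18 for Gata6, and in Thy1 dKO from -0.06 to 0.17 for Foxn3, -0.22 to 0.01 for Foxo3, -0.13 to 0.08 for Foxj3, -0.01 to 0.10 for Foxk2, -0.14 to 0.81 for Foxs1, -0.69 to 0.07 for Sox13, -0.05 to 0.15 for Foxn2, -0.04 to 0.24 for Tbx2 and -0.44 to 0.35 for Foxo6. Depth limits the members of few counts: in cKit dKO the standard error was 1.31 for Foxn4 and 0.91 for Foxi3, beside 0.14 for Tbx3.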
